A study of Mus musculus with 9 samples.

Results

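Antibodies are built from paired heavy and light chains, and the 4 genes described here, Igkc, Ighg2c, Ighg2b and Jchain, encode constant parts of them and the chain that joins them into polymers. They are 4 of the 13588 entries in a table of transcripts from the mouse mediobasal hypothalamus, and were taken by gene symbol because earlier results of the same libraries showed a large rise in some AAV-Cre tissue. That choice used the AAV-Cre against AAV-GFP contrast, so the levels of the 4 genes are given as a description, with no test. All 4 passed the filter on low values, which kept entries whose deposited signal reached 1 in 3 or more libraries.

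The tissue came from male C57/BL6 mice of genotype Snord116tm1Uta/J, in which the Snord116 noncoding RNA cluster is flanked by loxP sites. Both the treated and the control mice carry this allele. AAV vectors were injected stereotaxically into the mediobasal hypothalamus, and brains were frozen 10 weeks later. AAV-Cre drives Cre recombinase from a CAG promoter, which is active in many cell types, whereas the control AAV-GFP drives green fluorescent protein from a CMV promoter. The paper also gives a higher vector concentration for AAV-Cre than for AAV-GFP. Transgene, promoter and vector dose thus change together and cannot be told apart. Regions were cut by laser capture from single slices, following the Cre staining of adjacent sections, with matched regions in AAV-GFP mice. There were 3 libraries from AAV-GFP mice, 3 from AAV-Cre mice labelled obese and 3 from AAV-Cre mice labelled nonobese, the last 2 being subsets of the injected mice split by body weight. The titles of the samples give the opposite assignment of the subsets to their weight labels. The subsets are named here by the weight label, with replicate numbers from the titles, and if the titles are right the 2 subset names exchange throughout.

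Each antibody molecule pairs 2 identical heavy chains with 2 identical light chains. The variable end of each chain is assembled from V, D and J gene segments in a single B cell and its descendants, and the constant end sets the class. Activated B cells switch from IgM to IgG or IgA, and plasma cells, which B cells become, secrete the product in very large amounts. The J chain links IgM and IgA molecules into polymers and is also made in plasma cells that secrete IgG. Healthy brain tissue holds few of these cells.

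Igkc, the constant region of the kappa light chain, lies on chromosome 6 at 70726435 to 70726966, plus strand, in GRCm38. Jchain lies on chromosome 5 at 88519809 to 88527891, minus strand. Ighg2c, at 113285325 to 113288932, and Ighg2b, at 113302965 to 113307933, are heavy chain constant genes for IgG2 subclasses and lie on the minus strand of chromosome 12. The lincRNA Gm30211 overlaps Igkc on the same strand in GENCODE M21 and was not analysed here.

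Whether Ighg2c and Ighg2b can be told apart decides how their values are read, so their hinge exons are printed. The hinge is the flexible stretch between the antigen-binding arms and the stem. Capitals mark the bases at which the exons differ when aligned, and both are given 5′ to 3′ on the minus strand of chromosome 12 in GRCm38.
Ighg2b hinge, chr12:113307261-113307326: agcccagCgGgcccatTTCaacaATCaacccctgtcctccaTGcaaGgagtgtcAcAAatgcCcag
Ighg2c hinge, chr12:113288263-113288325: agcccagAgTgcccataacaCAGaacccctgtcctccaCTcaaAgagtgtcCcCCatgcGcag
These exons were 77.27% identical. The first constant domain was 87.63% identical, the second 94.24% and the third 76.66%. The longest run the genes share is 78 bases in the exon of the second constant domain, shown next because a 50-base read inside it fits both genes.
Shared by Ighg2b, chr12:113306869-113306946, and Ighg2c, chr12:113287869-113287946: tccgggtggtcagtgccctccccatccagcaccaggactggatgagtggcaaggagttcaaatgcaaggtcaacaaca
Of all 50-base windows in the exons of Ighg2c, 70 of 1276 (5.486%) were identical to a window of another gene, in each case Ighg2b. For Ighg2b, 109 of 2628 windows (4.148%) were shared, 70 with Ighg2c, 39 with Ighg3 and 10 with Ighg1. No window was shared for Igkc (483 windows) or Jchain (2427 windows). Most of the length of each of the 4 genes can therefore be assigned to it from a 50-base read without mismatches.

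Libraries held between 3929672 and 5766994 reads on the listed entries, recovered as whole numbers from the deposited signal. The floor of 3 reads used here corresponds to a signal between 0.525 and 0.786. Cre reads numbered 1, 5 and 0 in AAV-GFP replicates 1 to 3 and between 1011 and 37704 in the 6 AAV-Cre libraries, and Gfp reads numbered 317 to 350 in AAV-GFP libraries and 0 in every AAV-Cre library, so each library fits its treatment label. Obese-labelled replicates 1 and 3 stood apart from the other 7 libraries in the immunoglobulin genes, the immune gene lists and the glial and vascular list. The mean log2(signal + 1) of that last list was 5.57 and 5.66 in them and at most 4.98 elsewhere. Results that rest on these 2 libraries are given with and without them. Nr5a1, which marks the ventromedial nucleus, had 0 reads in obese-labelled replicates 1 and 3, in AAV-GFP replicate 3 and in nonobese-labelled replicate 3, against 62 to 203 reads in the other 5 libraries. The captured regions thus differed in content, and the part of this in the results was not tested.

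Igkc had 6, 0 and 4 reads in AAV-GFP replicates 1 to 3. It had 9220, 230 and 17359 reads in obese-labelled replicates 1 to 3, and 106, 95 and 143 in nonobese-labelled replicates 1 to 3. Every AAV-Cre library was above every AAV-GFP library, and the obese-labelled libraries were above the nonobese-labelled ones. On the deposited scale, reads relative to a scaled library size as in CPM, the AAV-GFP mean was 0.758 ± 0.748 (SD, n = 3). The obese-labelled mean was 2053 ± 1990 (SD, n = 3) and the nonobese-labelled mean 24.6 ± 5.99 (SD, n = 3). The SD of the obese-labelled libraries was nearly as large as their mean, since replicate 3 was 77.3 times replicate 2. The nonobese-labelled libraries spread only 1.65-fold. Relative to the AAV-GFP mean, which rests on 10 reads in all, Igkc was 2738-, 68.9- and 5323-fold higher in obese-labelled replicates 1 to 3, and 24.5-, 32.8- and 40.3-fold higher in nonobese-labelled replicates 1 to 3.

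Ighg2c encodes the heavy chain of IgG2c, a subclass of IgG. It had 1, 0 and 1 reads in the AAV-GFP libraries. Obese-labelled replicates 1 to 3 had 6910, 240 and 13587 reads. Nonobese-labelled replicates 1 to 3 had 9, 3 and 339 reads, so a single nonobese-labelled library carried nearly all of the subset's reads and lay above obese-labelled replicate 2. The mean signal was 1589 ± 1551 (SD, n = 3) in the obese-labelled and 24.9 ± 41.1 (SD, n = 3) in the nonobese-labelled libraries, which overlapped. Against the 3-read floor averaged over the AAV-GFP libraries, a signal of 0.635, Ighg2c was at least 85.8-fold higher in obese-labelled replicate 2, the lowest of its subset, and at least 114-fold higher in nonobese-labelled replicate 3. In nonobese-labelled replicate 2 it was at the floor.

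Ighg2b, the IgG2b heavy chain, had 0, 0 and 2 reads in the AAV-GFP libraries. Obese-labelled replicates 1 to 3 had 2291, 145 and 4451 reads. Nonobese-labelled replicates 1 to 3 had 115, 44 and 1 reads. Here nonobese-labelled replicate 3, the library with the most Ighg2c of its subset, was below an AAV-GFP library. The mean signal was 527 ± 501 (SD, n = 3) in the obese-labelled and 10.6 ± 9.99 (SD, n = 3) in the nonobese-labelled libraries, with no overlap between these subsets. Ighg2b was at least 51.8-fold above the AAV-GFP floor in obese-labelled replicate 2, at least 31.7-fold in nonobese-labelled replicate 1 and at least 18.1-fold in nonobese-labelled replicate 2.

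Jchain had 0 reads in each AAV-GFP library. Obese-labelled replicates 1 to 3 had 2279, 58 and 3305 reads, and nonobese-labelled replicates 1 to 3 had 6, 19 and 33. All 6 AAV-Cre libraries were above the floor, and the subsets did not overlap. The mean signal was 431 ± 384 (SD, n = 3) in the obese-labelled and 4.36 ± 3.04 (SD, n = 3) in the nonobese-labelled libraries. Jchain was at least 20.7-fold above the AAV-GFP floor in obese-labelled replicate 2. It was at least 1.65-, 7.84- and 11.1-fold above it in nonobese-labelled replicates 1 to 3.

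**Figure D1:**
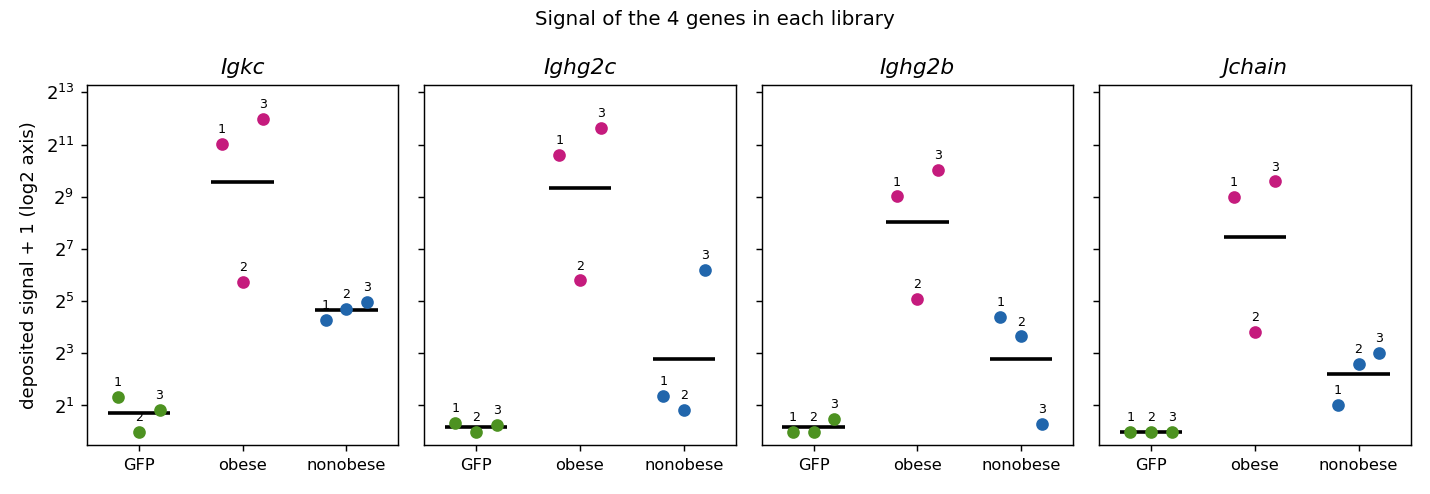
Deposited signal plus 1 on a log2 axis for each of the 4 genes, with a point per library, its replicate number beside it and a bar at the mean of the log2 values of each group (n = 3). Obese-labelled replicates 1 and 3 lie far above replicate 2 for every gene, and nonobese-labelled replicates 1 and 2 exchange places with replicate 3 between Ighg2c and Ighg2b.

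The fitted log2 FC on the log2(signal + 1) scale was 8.86 for Igkc, 9.15 for Ighg2c, 7.88 for Ighg2b and 7.47 for Jchain in obese-labelled AAV-Cre against AAV-GFP. In nonobese-labelled AAV-Cre against AAV-GFP it was 3.94, 2.61, 2.62 and 2.21, in the same order. Both contrasts share the AAV-GFP libraries. Between the subsets the difference was 4.92, 6.54, 5.26 and 5.26, obese-labelled minus nonobese-labelled. For all AAV-Cre libraries against AAV-GFP it was 6.40, 5.88, 5.25 and 4.84. Without obese-labelled replicates 1 and 3, a choice made after seeing the data, the log2 FC of the remaining obese-labelled library against AAV-GFP was 5.02 for Igkc, 5.60 for Ighg2c, 4.93 for Ighg2b and 3.82 for Jchain. The difference of that library from the nonobese-labelled libraries was then 1.08, 2.99, 2.31 and 1.62. Without replicate 2 alone the log2 FC of the obese-labelled subset against AAV-GFP was 10.78, 10.92, 9.36 and 9.30, and without replicate 3 alone it was 7.66, 8.01, 6.89 and 6.41. In nonobese-labelled AAV-Cre against AAV-GFP, Ighg2c had a log2 FC of 0.91 without nonobese-labelled replicate 3 and reached 3.32 and 3.59 without replicates 1 and 2. For Ighg2b the value was 1.81 without nonobese-labelled replicate 1 and 3.87 without replicate 3, so single libraries set the size of both.

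Every obese-labelled library was above every AAV-GFP library for 4 of the 4 genes, which held for 7.18% of the 13506 entries tested in the higher direction. In nonobese-labelled AAV-Cre against AAV-GFP, 3 of the 4 did not overlap, with 4.57% of all entries. For all 6 AAV-Cre libraries, 3 of the 4 did not overlap, with 0.933% of all entries. Between the subsets, 3 of the 4 were higher in each obese-labelled library, with 6.65% of all entries. All of these contrasts use the values that the genes were chosen by, their rise in some AAV-Cre libraries, and nothing is read from the counts.

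The 4 genes together took 20700 reads (0.476% of the reads) in obese-labelled replicate 1, 673 (0.0146%) in replicate 2 and 38702 (0.935%) in replicate 3. They took 236, 161 and 516 reads in nonobese-labelled replicates 1 to 3, and 7, 0 and 7 in the AAV-GFP libraries. These are bulk regions, in which fewer cells of a type and less RNA per cell cannot be told apart.

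The order of the genes within a library was compared only on signal per kilobase of annotated exon, as the genes differ in length (532 bases for Igkc, 1326 for Ighg2c, 2678 for Ighg2b and 2517 for Jchain). In obese-labelled replicate 3 the signal per kilobase was 7581 for Igkc, 2381 for Ighg2c, 386 for Ighg2b and 305 for Jchain. In replicate 1 it was 3899, 1172, 192 and 204. In replicate 2 it was 98.1, 41.1, 12.3 and 5.23, so kappa ranked first and IgG2c second in each of these libraries. Annotated exons of Ighg2b include more membrane and untranslated sequence, which lowers its value per kilobase where those parts are not transcribed.

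From obese-labelled replicate 1 to replicate 3 the signal of Igkc was 1.94 times as high, that of Ighg2b 2.01 times, that of Ighg2c 2.03 times and that of Jchain 1.50 times. Igkc, Ighg2b and Ighg2c thus kept nearly the same proportions in these mice. Igkc is not specific to IgG, and Igha made up 29.3% and 23.6% of heavy constant reads per kilobase in replicates 1 and 3. The split between IgG2 subclasses can be followed by the share of Ighg2c among Ighg2c and Ighg2b reads. It was 75.1% in obese-labelled replicate 1 (95% Wilson interval 74.2% to 76.0%), 62.3% in replicate 2 (57.4% to 67.0%) and 75.3% in replicate 3 (74.7% to 75.9%). Among the nonobese-labelled libraries it was 7.26% in replicate 1 (3.87% to 13.2%), 6.38% in replicate 2 (2.19% to 17.2%) and 99.7% in replicate 3 (98.4% to 99.9%). The intervals cover counting error only, since reads amplified from few molecules are not independent. Each nonobese-labelled library was therefore dominated by a single IgG2 subclass, IgG2b in replicates 1 and 2 and IgG2c in replicate 3, while all 3 obese-labelled libraries held both.

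These unequal proportions can be set against those of obese-labelled replicates 1 and 3 added together, scaled to each library's Igkc reads. Nonobese-labelled replicate 1, with 106 Igkc reads, would then hold 81.7 Ighg2c and 26.9 Ighg2b reads, and it held 9 and 115. Nonobese-labelled replicate 3 would hold 110 and 36.3, and it held 339 and 1. Obese-labelled replicate 2 would hold 177 Ighg2c, 58.3 Ighg2b and 148 Igha reads, and it held 240, 145 and 2. Nonobese-labelled replicate 2 would hold 73.3 Ighg2c, 24.1 Ighg2b and 61.0 Igha reads, and it held 3, 44 and 53. Jchain was nearer to these proportions, with 58 reads against 48.3 in obese-labelled replicate 2, and 19 against 19.96 and 33 against 30.0 in nonobese-labelled replicates 2 and 3, but 6 against 22.3 in nonobese-labelled replicate 1. The IgG2 subclasses of the low libraries thus did not keep the proportions of the 2 high libraries.

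**Figure D2:**
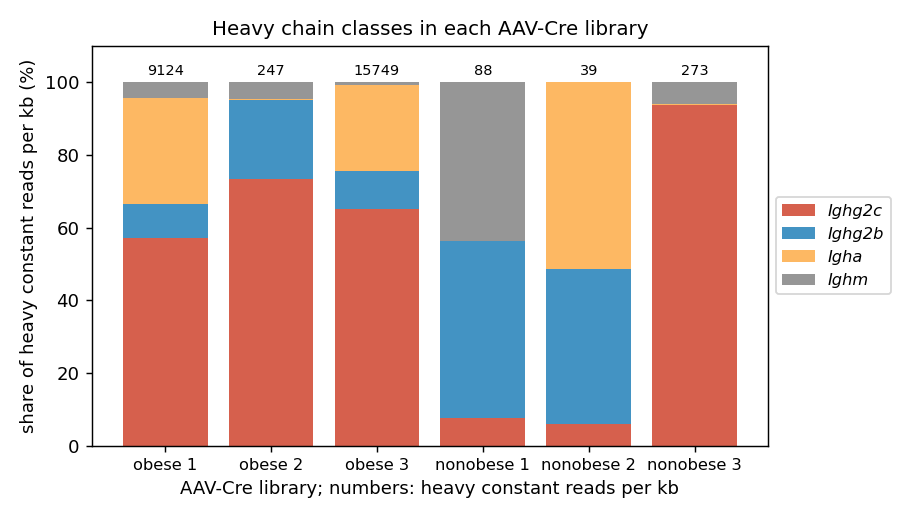
Share of each heavy chain constant gene among reads per kilobase of exon, in percent, for the 6 AAV-Cre libraries, with the summed heavy constant reads per kilobase above each bar. Obese-labelled replicates 1 to 3 are mostly Ighg2c with Ighg2b and, in 1 and 3, Igha, whereas the nonobese-labelled libraries differ from each other in their leading class.

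The table held 22 other immunoglobulin entries, 9 of which passed the filter on low values. In obese-labelled AAV-Cre against AAV-GFP, 1 of these 9 was called higher at FDR < 0.1, Igha, the constant region of IgA, as were 0.422% of all 13506 entries. Igha had 0, 0 and 7 reads in the AAV-GFP libraries and 7128, 2 and 9937 in obese-labelled replicates 1 to 3. Its log2 FC was 7.04 (SE 1.62, limma FDR = 0.0563), with replicate 2 within the AAV-GFP range. The FDR was 0.418 without obese-labelled replicate 1, 0.378 without replicate 3, and 0.305, 0.157 and 0.138 without AAV-GFP replicates 1, 2 and 3, so 5 of the 9 libraries were each needed for the call. Without obese-labelled replicate 2, 5 of the other immunoglobulin genes were called higher, with 3.08% of all entries. Of the 9, 7 had an unadjusted p under 0.05 in the higher direction (5.11% of all entries). However, 6 of the 9 had 0 reads in every AAV-GFP library, and 8 of the 9, Igha among them, passed the filter only through obese-labelled replicates 1 and 3. Their counts, and the FDR values of Igha, are thus given as a description, and nothing is read from them.

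In nonobese-labelled AAV-Cre against AAV-GFP, 0 of the 9 were called by limma, with 0 at an unadjusted p under 0.05 and 0 by edgeR or DESeq2. Over all entries 0.0074% were called higher and 1.04% had such a p in that direction. For all AAV-Cre against AAV-GFP, 0 were called by limma, 4 had an unadjusted p under 0.05 in the higher direction, and 0.037% and 2.4% of all entries did so. Between the subsets, 0 were called by limma, 7 had an unadjusted p under 0.05 in the higher direction, and 0.733% and 6.26% of all entries did so. The last 2 counts were 3 and 6 by edgeR's likelihood ratio test (0.0888% and 2.32% of all entries), and 0 and 1 by its quasi-likelihood test (0.0222% and 0.918%). In nonobese-labelled replicate 2, Igha had 53 reads, against 0 and 1 in replicates 1 and 3.

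Ighm, the constant region of IgM that every B cell makes first, was the only immunoglobulin gene with reads above the floor in all 3 AAV-GFP libraries, at 14, 37 and 5 reads. It had 727, 21 and 219 reads in obese-labelled replicates 1 to 3 and 73, 0 and 31 in nonobese-labelled replicates 1 to 3. Its groups overlapped, and its log2 FC did not pass the test. Unlike Igkc, Ighg2b and Ighg2c it was lower in replicate 3 than in replicate 1, at 0.311 times the signal. Iglc2, a constant gene of the lambda light chain, had 57, 0 and 152 reads in the obese-labelled libraries and 0, 0 and 5 in the nonobese-labelled ones. Per kilobase, kappa made up 99.5% and 99.2% of Igkc plus Iglc2 in obese-labelled replicates 1 and 3.

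A plasma cell expresses a single rearranged heavy and a single rearranged light chain, so counts of variable segments record which segments were in use. Different lineages can use the same segment, so a shared segment does not show a shared lineage. The table listed 17 variable segments, 7 heavy, 9 kappa and 1 lambda. Obese-labelled replicate 1 had over 3 reads in 17 of the 17 and replicate 3 in 15, all 15 of them shared with replicate 1. Obese-labelled replicate 2 had over 3 reads in 2 of them, and nonobese-labelled replicates 1 to 3 in 1, 1 and 3. In the AAV-GFP libraries 16 of the 17 had 0 reads, the exception being Iglv3 with 42 reads in replicate 1. Entries with fewer than 50 reads over the 9 libraries are not in the table, so segments carried by a low library alone at low counts could not be seen. Of 268 immunoglobulin genes annotated in GENCODE M21, only 25 were listed. Every listed segment had over 3 reads in more than 1 library. Segments private to a single mouse may therefore be missing, and nothing is read from the sharing between replicates 1 and 3.

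The same segment could differ widely between the 2 high libraries. Ighv1-59 had 90 reads in obese-labelled replicate 1 and 1153 in replicate 3, and Ighv1-82 had 50 and 939. Igkv1-122 and Ighv1-7 went the other way, with 1314 and 762 reads in replicate 1 and 0 in replicate 3. Igkv10-96 was close to even, at 1310 and 1520 reads. The signal in replicate 3 was 0.311 (Ighm) to 2.75 (Iglc2) times that in replicate 1 over the constant genes. Over the segments it ranged from 0 reads in replicate 3 to 19.4 times, with several, such as Igkv14-111 at 1.58 times and Igkv8-28 at 1.87 times, as even as the constant genes.

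Ighv1-7 and Igkv1-122, a heavy and a kappa segment, were also the only ones above the floor in obese-labelled replicate 2, with 83 reads each. They were the most abundant of the 3 above it in nonobese-labelled replicate 3, with 21 and 44 reads, beside 8 for Igkv3-5. Nonobese-labelled replicate 1 held only Igkv1-110, with 40 reads, and replicate 2 only Ighv1-50, with 56. These pairings were noticed after the values were seen. Between 14.8% and 52.2% of the 50-base windows of the heavy segments, and up to 51.4% of those of the kappa segments, are identical to a window of another gene, so reads may be split between related segments. For Ighv1-7 the share was 31.3% and for Igkv1-122 17.1%.

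**Figure D3:**
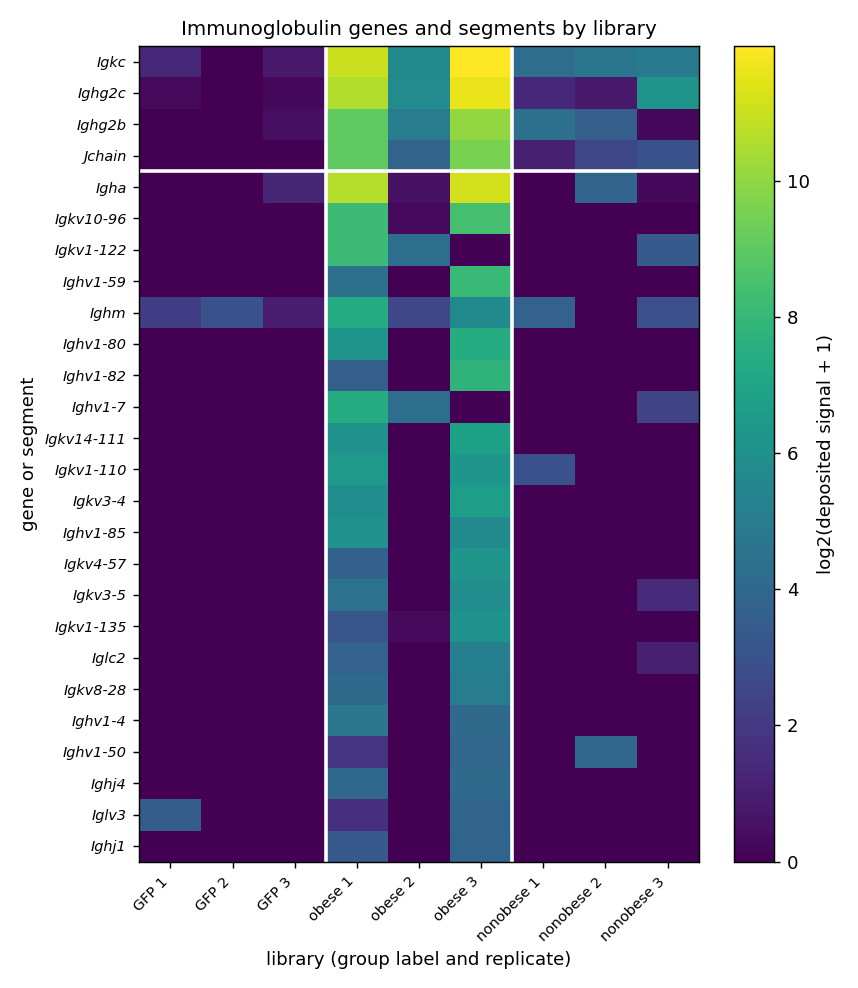
Heat map of log2(deposited signal + 1) for the 4 genes (above the white line) and the 22 other immunoglobulin entries, ordered by mean signal, in the 9 libraries. Nearly all segments are dark outside obese-labelled replicates 1 and 3, with Ighv1-7 and Igkv1-122 as the segments seen in obese-labelled replicates 1 and 2 and nonobese-labelled replicate 3.

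The cells that could carry these transcripts were looked for through lists of B cell and plasma cell genes. Of 24 B cell genes listed, 11 were in the table and 9 were tested. Ms4a1, Cd79b and Pax5 were not analysed here. Some of the 9 passed the filter on low values only with the obese-labelled libraries, so the counts of this list are a description. Cd79a, a signaling chain of the B cell receptor, had 0 reads in all AAV-GFP and all nonobese-labelled libraries and 44, 0 and 55 in obese-labelled replicates 1 to 3, too few libraries to be tested. Against AAV-GFP, 0 of the 9 were called by limma in either subset, with 5 at an unadjusted p under 0.05 in the obese-labelled (5.11% of all entries) and 0 in the nonobese-labelled libraries. DESeq2 and edgeR's likelihood ratio test each called 2 in the obese-labelled libraries, with 1.61% and 1.53% of all entries, and 0 in the nonobese-labelled libraries. Without obese-labelled replicate 2, limma called 2 in the obese-labelled libraries, with 3.08% of all entries. Between the subsets, where 0.733% of all entries were called higher, 1 of the 9 rose, Cd53, a tetraspanin of leukocytes in general, with a log2 FC of 3.37 (SE 0.80, limma FDR = 0.0551). It had 155, 35 and 99 reads in the obese-labelled and 1, 12 and 2 in the nonobese-labelled libraries, against 36, 16 and 14 in AAV-GFP libraries. The FDR of Cd53 was 0.304 and 0.229 without obese-labelled replicates 1 and 3, and 0.185 and 0.170 without nonobese-labelled replicates 1 and 3. The summed signal of the 11 genes was 28.9 to 34.1 in AAV-GFP libraries, 10.5 to 23.6 in nonobese-labelled libraries, 44.7 in obese-labelled replicate 2, and 220 and 219 in replicates 1 and 3.

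Of 31 plasma cell genes listed, 27 were in the table and 24 were tested. Several of them, such as Xbp1 and Hsp90b1, serve the secretory pathway of any cell. Prdm1, Pou2af1 and Sdc1 passed the filter on low values only with the obese-labelled libraries. The counts of this list are therefore a description, and nothing is read from them against the share of all entries. Against AAV-GFP, 0 of the 24 were called by limma in either subset, with 6 at an unadjusted p under 0.05 in the obese-labelled (5.11% of all entries) and 0 in the nonobese-labelled libraries. In the obese-labelled libraries edgeR's quasi-likelihood test called 1, DESeq2 called 5, and limma called 6 without replicate 2, with 0.578%, 1.61% and 3.08% of all entries. In the nonobese-labelled libraries edgeR and DESeq2 called 0. Between the subsets 2 of the 24 rose, with 0.733% of all entries. Edem1, which sends misfolded glycoproteins to degradation, had a log2 FC of 2.37 (SE 0.60, limma FDR = 0.0813), and Pdia4, a protein disulfide isomerase of the endoplasmic reticulum, had 1.10 (SE 0.26, limma FDR = 0.0484). Neither is restricted to plasma cells. Without obese-labelled replicate 1 the FDR was 0.355 for Edem1 and 0.256 for Pdia4, and without replicate 3 it was 0.236 and 0.265. Without nonobese-labelled replicates 2 and 3 in turn it was 0.305 and 0.129 for Edem1, and 0.206 and 0.208 for Pdia4. For Edem1 alone the call was also lost without AAV-GFP replicate 1, 2 or 3, at 0.117, 0.108 and 0.106.

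Of the genes closest to plasma cell identity, Mzb1, Irf4, Prdm1 and Pou2af1 were seen mainly in obese-labelled replicates 1 and 3, and Sdc1 was not. Mzb1, a chaperone for secreted IgM, had 35, 0 and 133 reads in obese-labelled replicates 1 to 3, and the transcription factor Irf4 had 56, 0 and 264. Prdm1, which drives the plasma cell program, had 52, 17 and 95 reads. Pou2af1, a coactivator of immunoglobulin transcription, had 31, 0 and 118. Sdc1, the surface marker CD138, had 3, 26 and 83, so it was at the floor in replicate 1. In nonobese-labelled libraries Mzb1, Irf4 and Pou2af1 were at 0, Prdm1 reached 2 reads and Sdc1 19. In AAV-GFP libraries none of these 5 exceeded 8 reads. Other genes of the list did not follow replicates 1 and 3. Eaf2 had 1, 0 and 14 reads in obese-labelled replicates 1 to 3, against 20, 21 and 31 in nonobese-labelled and 1, 20 and 0 in AAV-GFP libraries. Fkbp11 had 5, 0 and 48 in the obese-labelled and 27, 20 and 2 in the AAV-GFP libraries. Xbp1, which expands the secretory apparatus, was present everywhere, with 225 to 296 reads in AAV-GFP libraries, 345, 96 and 486 in obese-labelled replicates 1 to 3 and 153 to 340 in nonobese-labelled libraries. Tnfrsf17 was not analysed here. The summed signal of the 27 genes was 849 to 925 in AAV-GFP libraries, 814 to 1005 in nonobese-labelled libraries, 867 in obese-labelled replicate 2, and 1620 and 1789 in replicates 1 and 3. Obese-labelled replicate 2 and the nonobese-labelled libraries carried 161 to 673 reads of the 4 genes. Mzb1 and Irf4 were at 0 reads in them, but Prdm1 had 17 and Sdc1 26 in obese-labelled replicate 2, and Sdc1 19 in nonobese-labelled replicate 1. Their Igkc reads were 0.357% to 0.865% of those in obese-labelled replicates 1 and 3 together. At that share, Mzb1 and Irf4 would be too low to be seen reliably, so the zeros do not show whether plasma cells were present.

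**Figure D4:**
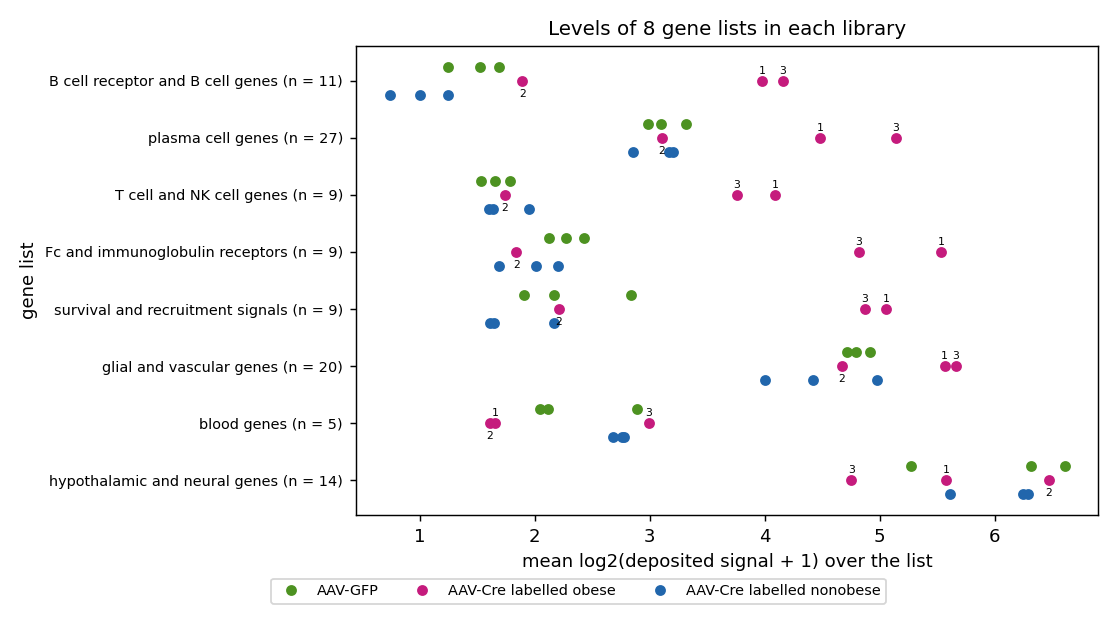
Mean log2(deposited signal + 1) over each gene list, with a point per library and the replicate number beside the obese-labelled points. In the B cell, plasma cell, T cell, Fc receptor, survival, and glial and vascular lists, obese-labelled replicates 1 and 3 lie to the right of the other 7 libraries, with obese-labelled replicate 2 among them or close by.

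Receptors and transporters bind immunoglobulin from outside the cell that makes it. Of 12 listed genes, 9 were tested. Some of the 9 passed the filter on low values only with the obese-labelled libraries, so their counts are a description. In obese-labelled AAV-Cre against AAV-GFP, where 0.422% of all entries were called higher, 1 rose, B2m, the light chain of both MHC class I and the neonatal Fc receptor, with 267, 454 and 231 reads in AAV-GFP libraries and 4747, 372 and 4962 in obese-labelled libraries (log2 FC 2.87, SE 0.55, limma FDR = 0.0170). Against the nonobese-labelled libraries, with 371, 249 and 425 reads, its log2 FC was 2.68 (SE 0.55, limma FDR = 0.0201). Without obese-labelled replicates 1 and 3 in turn the FDR was 0.269 and 0.167 against AAV-GFP, and 0.251 and 0.194 against the nonobese-labelled libraries. It was also 0.148 and 0.126 without AAV-GFP replicates 1 and 3, and 0.106 in the subset comparison without nonobese-labelled replicate 2. In nonobese-labelled AAV-Cre against AAV-GFP 0 of the 9 were called by limma, edgeR or DESeq2, with 0 at an unadjusted p under 0.05. Without obese-labelled replicate 2, 6 of the 9 were called in the obese-labelled libraries, with 3.08% of all entries. Fcgrt, the heavy chain of the neonatal Fc receptor, had 104, 11 and 70 reads in obese-labelled libraries and 18, 22 and 58 in AAV-GFP libraries, and Pigr, which carries polymeric IgA across epithelia, had at most 30 reads in any library. The median log2 FC of the 9 in obese-labelled AAV-Cre against AAV-GFP was 2.06, beside −0.036 over all entries.

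Of 25 genes that attract B cells or keep plasma cells alive, 9 were tested. Here too, some passed the filter on low values only with the obese-labelled libraries, and the counts are a description. In obese-labelled AAV-Cre against AAV-GFP, with 0.422% of all entries called higher, 1 rose, Vcam1, an adhesion molecule to which plasma cells bind, with 48, 88 and 83 reads in AAV-GFP libraries and 322, 108 and 439 in obese-labelled libraries (log2 FC 1.87, SE 0.45, limma FDR = 0.0716). Without obese-labelled replicates 1 and 3 in turn its FDR was 0.355 and 0.421, and it was between 0.102 and 0.336 without any AAV-GFP library or without nonobese-labelled replicate 1 or 3. Tnfsf13b, the survival factor BAFF, had 8, 26 and 42 reads in obese-labelled and 77, 20 and 13 in AAV-GFP libraries, which overlapped. The chemokine Cxcl9 had 586, 0 and 278 reads in obese-labelled libraries and 6, 17 and 25 in AAV-GFP libraries, also overlapping. Without obese-labelled replicate 2, 5 of the 9 were called in the obese-labelled libraries, with 3.08% of all entries. In nonobese-labelled AAV-Cre against AAV-GFP 0 were called higher by limma, edgeR or DESeq2, with 0 higher and 1 lower at an unadjusted p under 0.05.

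Markers of other cells were measured in the same libraries. Of 25 T cell and NK cell genes, 9 were in the table. Cd3e, a chain of the T cell receptor complex, had 129, 0 and 43 reads in obese-labelled replicates 1 to 3, 0 in the nonobese-labelled libraries and 0, 6 and 0 in AAV-GFP libraries. Cd8a had 76, 0 and 56 reads in obese-labelled replicates 1 to 3. The mean log2(signal + 1) of the 9 was 4.09 and 3.76 in obese-labelled replicates 1 and 3 and between 1.53 and 1.95 in the other 7 libraries. Thy1, which neurons also express, fell in obese-labelled against nonobese-labelled libraries (log2 FC −0.90, SE 0.22, limma FDR = 0.0599), as did 0.215% of all entries, and was lost as a call without obese-labelled replicate 1 or 3 (0.256 and 0.273) or any nonobese-labelled library (0.142 to 0.212) or AAV-GFP replicate 1 (0.102).

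For blood, 5 genes of red cells were in the table. Their summed signal was 17.3, 20.9 and 38.6 in obese-labelled replicates 1 to 3, 19.3 to 40.1 in AAV-GFP libraries and 31.2 to 42.9 in nonobese-labelled libraries. On summed signal, obese-labelled replicates 1 and 3 thus lay within or below the AAV-GFP range for red cell transcripts. On mean log2(signal + 1) this held for replicate 1, at 1.66, but not for replicate 3, at 2.99. The AAV-GFP libraries were at 2.05 to 2.89 on that measure. Hbb-bs, an adult beta globin, had 44, 19 and 46 reads in obese-labelled replicates 1 to 3 against 66, 40 and 65 in AAV-GFP libraries.

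The neural list marks the tissue. Its mean log2(signal + 1) over 14 genes was 5.58 and 4.76 in obese-labelled replicates 1 and 3, 6.47 in replicate 2, 5.27 to 6.61 in AAV-GFP libraries and 5.61 to 6.29 in nonobese-labelled libraries. Slc17a6, the glutamate transporter of hypothalamic neurons, fell in obese-labelled against nonobese-labelled libraries (log2 FC −1.06, SE 0.24, limma FDR = 0.0328), as did 0.215% of all entries. Its FDR was 0.253 and 0.186 without obese-labelled replicates 1 and 3 and 0.230 without nonobese-labelled replicate 2. The neural list did not move as 1, and 4 of its 14 genes had a log2 FC above 0 in this comparison. Gad1 had signals of 242 and 239 in obese-labelled replicates 1 and 3, against 150 to 160 in AAV-GFP and 73.1 to 202 in nonobese-labelled libraries. Gad2 had 322 and 283, against 203 to 253 and 82.2 to 242. Among 20 glial and vascular genes, 2 rose and 0 fell in obese-labelled AAV-Cre against AAV-GFP, with 0.422% of all entries called higher, while 5 higher and 4 lower had an unadjusted p under 0.05. Gfap, the filament of reactive astrocytes, had 1640, 572 and 2755 reads against 333, 315 and 52 (log2 FC 3.03, SE 0.55, limma FDR = 0.0119), and its FDR was 0.175 and 0.154 without obese-labelled replicates 1 and 3 in turn. Aqp4, a water channel of astrocytes, had 1087, 544 and 1458 reads against 353, 608 and 423 (log2 FC 1.19, SE 0.27, limma FDR = 0.0559). Its FDR was 0.323 and 0.321 without those libraries in turn, and 0.292 and 0.265 without AAV-GFP replicates 1 and 3. For both genes all obese-labelled libraries were above all AAV-GFP libraries on the signal scale, as for 6 of the 20 genes and 7.18% of all entries. For Aqp4 the margin was narrow, with a signal of 123 in obese-labelled replicate 2 against 116 in AAV-GFP replicate 2. How far these shifts in tissue content bear on the 4 genes was not tested.

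Cre transcript and immunoglobulin transcript ran apart among the AAV-Cre libraries. Cre reads were 5912, 37704 and 1011 in obese-labelled replicates 1 to 3 and 26539, 19611 and 33105 in nonobese-labelled replicates 1 to 3. The 2 libraries with Cre signals of 1330 and 235 had Igkc signals of 2074 and 4033, and the 4 with a Cre signal of 4644 to 8557 had an Igkc signal of 18.6 to 52.2. Within those 4, the library with the most Cre also had the most Igkc. As the 6 libraries form separate clusters, no correlation is given, and the relation was not tested.

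**Figure D5:**
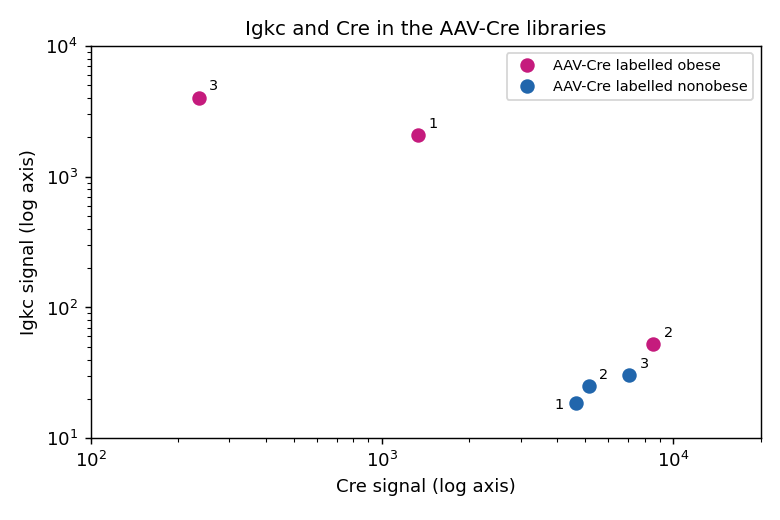
Igkc signal against Cre signal, both on log axes, with a point per AAV-Cre library and its replicate number. Obese-labelled replicates 1 and 3 sit at the upper left, with Cre signals of 1330 and 235, and the other 4 libraries sit at the lower right with Cre signals of 4644 to 8557.

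The genes whose pattern over the 9 libraries was most like the mean of the 4 genes, each scaled to unit variance on log2(signal + 1), were Tmbim6 (Pearson r = 0.977), C1qa (0.965), Rnf115 (0.965), Brd2 (0.960), Parp4 (0.957), Vcam1 (0.952), Nckap1l (0.951), Cmklr1 (0.948), Slc7a1 (0.948) and Ccng1 (0.948). These values describe 9 libraries in 3 groups, and carry no test. C1qa, a subunit of the complement component that binds antibody, had 43, 52 and 69 reads in AAV-GFP libraries, 917, 99 and 890 in obese-labelled libraries and between 52 and 112 in nonobese-labelled libraries. As the likeness chose it, no test is given. Tmbim6, an inhibitor of cell death in the endoplasmic reticulum, varied far less, from 463 to 896 reads over the 9 libraries.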

How the data were processed

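RNA of laser-captured mediobasal hypothalamus was amplified and sequenced as single-end reads of 50 bases, 1 library per mouse. Per the labels, the submitters' processing notes name CASAVA 1.7, TopHat2 2.0.11, HTSeq, edgeR and limma and the build GRCm38. The deposited values are a signal that the authors made from reads per gene and a TMM-scaled library size. Dividing by the signal of 1 read gave whole reads for 100% of values in each library (tolerance 0.05 reads). The design had assumed CPM, for which the same test was written.

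The main test was limma 3.58.1 in R 4.3.3 on log2(signal + 1), with all 3 groups in 1 fit and a variance trend. It covered the 13506 entries that reached a signal of 1 in 3 or more libraries. Calls were made at FDR < 0.1 after Benjamini-Hochberg adjustment. Log2 fold changes are on that scale and understate low genes. SD gives the spread between libraries of a group. With 1 library per mouse, differences of mouse, captured region and amplification cannot be told apart in it. SE and p-values rest on a variance shared over the 3 groups, whose spreads were unequal for the immunoglobulin genes. The members and gene lists were chosen with earlier results of these data known. Besides the 4 genes, the text names up to 15 other immunoglobulin entries by mean signal, called genes of each list, fixed defining markers, and the 10 genes most alike. A few genes that this rule names are not reported here. Symbols were matched for 13446 of 13586 identifiers, and positions, exons and sequences come from GENCODE M21 and GRCm38. Folds against a group at or under 3 reads use the 3-read floor averaged over the AAV-GFP libraries.

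The fit was repeated with pseudocounts of 0.1 or 5, without the filter or with 5 as its minimum signal, without the variance trend, on only the groups compared, with libraries centred on their medians and with the replicate number as a block. Recovered reads were tested with edgeR 4.0.16 and DESeq2 1.42.0. Each library was left out in turn. Leaving out obese-labelled replicates 1 and 3 together was added after seeing the data.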

Additional observations from a re-analysis of the deposited data

Results flagged for a closer look

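A test for a library far from the others was run on 19 values over the 6 AAV-Cre libraries, the 4 genes, Igha, Ighm, Cre, the 11 list means and the read total. It marked 0 of them, where chance marks about 1 in 20. The test sets the gap between the most extreme library and its neighbour against the range. Libraries that lie high together therefore hide each other from it. For the mean of the 4 genes the gap was 0.111 of the range, against a critical value of 0.625. The test thus could not mark obese-labelled replicates 1 and 3, which stand apart together, and nothing is read from it. For 9 named genes outside the 4, the 2 AAV-Cre subsets differed at FDR < 0.1, as the log2 FC of obese-labelled against nonobese-labelled libraries. It was 3.37 for Cd53, 2.37 for Edem1, 1.10 for Pdia4, 2.68 for B2m, −0.90 for Thy1, −1.06 for Slc17a6, 3.39 for Gfap, 1.48 for Csf1r and 1.11 for Aqp4. Each of these calls was lost without obese-labelled replicate 1 and without replicate 3.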

How the results depend on the processing

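The log2 FC of the 4 genes stayed above 0 in 336 of 336 values over all alternatives and comparisons. The genes were chosen for this rise. Leaving out a library of a group outside a comparison also cannot move its log2 FC, so nothing is read from the count. In 284 values the log2 FC moved by less than 1 SD of the libraries, and the others came from the count tests, other pseudocounts or leaving out obese-labelled replicates 1 and 3 together. Ighg2c in nonobese-labelled AAV-Cre against AAV-GFP, at 2.61, was 0.91 without nonobese-labelled replicate 3. Of 293 values for other named genes called in a comparison, the vector transcripts left out, 184 kept the call, 109 lost it and 0 reversed.

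Counts called higher moved as follows, and the cause was not tested. Some entries of these lists passed the filter on low values only with the obese-labelled libraries, so the counts are a description. Of other immunoglobulin genes in obese-labelled AAV-Cre against AAV-GFP, 1 was called, and 0 with a pseudocount of 0.1, no variance trend, only the groups compared or without replicates 1 and 3 together; 2 with no filter or a pseudocount of 5, 4 and 7 by edgeR's quasi-likelihood and likelihood ratio tests, and 0 to 5 leaving out a library. Between the subsets the count was 0, and 1 with median centring, a pseudocount of 5 or the quasi-likelihood test, 2 with no filter, 6 by the likelihood ratio test, and 0 to 5 leaving out a library. For all AAV-Cre it was 0, 3 by the likelihood ratio test, and 0 to 2 leaving out a library. Of B cell genes, 0 were called against AAV-GFP in the obese-labelled libraries, 2 by DESeq2 and the likelihood ratio test, and 0 to 2 leaving out a library. Between the subsets 1 was called, 0 with a pseudocount of 0.1, only the groups compared or without replicates 1 and 3 together, 3 with a pseudocount of 5 or the quasi-likelihood test, 4 by DESeq2 and the likelihood ratio test, and 0 to 5 leaving out a library. Of plasma cell genes, 0 were called in obese-labelled AAV-Cre against AAV-GFP, 1 by the quasi-likelihood test, 3 with a pseudocount of 5 or the likelihood ratio test, 5 by DESeq2, and 0 to 6 leaving out a library. Between the subsets 2 were called, 0 with no variance trend, only the groups compared or without replicates 1 and 3 together, 1 with a pseudocount of 0.1, 5 by DESeq2, 6 by the likelihood ratio test, and 0 to 6 leaving out a library. For all AAV-Cre the count was 0, and 0 to 1 leaving out a library. The highest counts leaving out a library came without obese-labelled replicate 2.

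Mice of the same replicate number are different animals. The correlation of their deviations from the group means ran from −0.020 to 0.090 over 9 same-numbered pairs. Over differently numbered pairs it ran from −0.088 to 0.040. All of these values were small, but the highest came from same-numbered pairs. Whether libraries of the same number share a captured region was not tested, and the main fit used no block. With the replicate block, other immunoglobulin genes called were 3 in obese-labelled AAV-Cre against AAV-GFP and 2 between the subsets, B cell genes 3 between the subsets, and plasma cell genes 2 in obese-labelled AAV-Cre against AAV-GFP. With 3 libraries a group, a difference within the spread of the libraries was not detectable.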
